A study of Mus musculus with 8 samples.

Results

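The genes described here are 40 genes of autophagy and mitophagy, listed by symbol and grouped by role: the initiation kinase complex, the PI3-kinase complex, membrane supply, the conjugation machinery, the Atg8 family, cargo receptors, mitophagy genes, and transcription factors with one of their targets. The rule that picks them reads symbols and no measured value, but the list was drawn up with earlier results of these data known. Of the 40 genes, 38 had a transcript cluster (a gene-level probe set) of their own on the array, out of 19933 genes of the series with such a cluster. All 38 were bright enough to be tested, among 14950 genes. Optn, which encodes a cargo receptor, and 1 further gene of the list were not analysed here.

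The study compared the hearts of 8 male C57BL/6 mice at an age of 6 weeks. One group was wild type (WT, n = 4). The other was deficient in HDAC3 (KO, n = 4) and came from a line that the design text calls MCH3-KO without spelling the name out. HDAC3 removes acetyl groups from histones as part of corepressor complexes of nuclear receptors. All 8 mice ate normal chow, and total RNA of each heart went to 1 Affymetrix Mouse Gene 1.0 ST array. No source used here gives the exons of Hdac3 that were removed, the promoter used or the cells concerned.

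Autophagy encloses cytoplasm in a double membrane, the autophagosome, which fuses with a lysosome where the content is degraded. Small proteins of the Atg8 family are attached to the growing membrane and hold cargo receptors there, and mitophagy is the form of autophagy that takes up mitochondria. The heart, rich in mitochondria and made of long-lived muscle cells, depends on both for the turnover of mitochondria and protein aggregates.

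Hdac3 itself was lower in every KO heart. It read 10.14, 10.04, 10.20 and 10.04 in WT replicates 1 to 4 and 8.59, 8.59, 8.59 and 8.50 in KO replicates 1 to 4 (log2 intensity), which puts the KO mean at 34.4% of WT. Array medians lay between 54.1 and 56.5, and the number of arrays limits the precision of every value below. Cardiomyocyte markers fitted the labelled tissue, since all 12 lay above the 90th percentile of mean level. Of these 12, 4 fell and none rose in limma, nor at an unadjusted p under 0.05, and their summed intensity was 91050 to 92307 in WT and 86386 to 87697 in KO. Macrophage markers differed between the groups: 20 of 20 rose, with a median difference of 1.32 on the log2 scale. Their summed intensities were 4255 to 4904 in WT and 9889 to 12378 in KO. By the mean over all arrays 0 of them lay under the dim threshold (log2 4.50). Ccr2 (4.37 in WT, 4.87 in KO) and Aif1 (4.32 in WT, 4.98 in KO) had a WT mean under it. These 2 entered the test only through their KO level, so their part of the count was favoured by the filter. Of lymphocyte markers, 4 of 6 lay under that threshold and the other 2 did not pass the test, also not at an unadjusted p under 0.05. Of fibroblast markers 3 of 9 rose (Postn by 0.64, Lum by 0.38 and Col1a2 by 0.23) and of endothelial markers 1 of 9 (Flt1 by 0.20), while 1 of 5 smooth muscle markers fell (Smtn by 0.40). Of skeletal muscle markers 1 of 5 tested rose (Mybpc1 by 0.39). Mybpc1 was dim, with a mean of 4.35 in WT and 4.74 in KO, and it too passed the filter only through its KO level. RNA came from whole hearts, so fewer cells of a type and less RNA per cell cannot be told apart. Across the measured members KO replicate 4 was the lowest KO array in 22 of 38, and it also had the lowest rise of macrophage markers (1.04 above the WT mean, against 1.22 to 1.27 in the other 3).

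In the KO hearts 15 of the 38 measured genes changed (39.5%; 24.6% of all genes tested changed), 6 of them higher (15.8%; 10.8% of all genes) and 9 lower (23.7%; 13.9% of all genes). A gene is said to have changed, risen or fallen where its Benjamini-Hochberg adjusted p in limma was under 0.05. The genes that rose were the Atg8 family genes Gabarapl1 and Gabarap, the cargo receptor gene Sqstm1, the mitophagy receptor gene Bnip3, the transcription factor gene Foxo3 and the FOXO target gene Fbxo32. Those that fell were Map1lc3a of the Atg8 family, the membrane supply genes Atg9a, Atg2a and Atg2b, the conjugation genes Atg4d and Atg10, Pik3r4, Pink1 and Tfeb. Gabarapl1 and Bnip3 were the 2 genes that changed by 1.5-fold or more. The values of the groups did not overlap in 20 of the 38 genes (52.6%; 28.6% of all genes tested), namely the 15 that changed and Ulk2, Becn1, Wipi1, Map1lc3b and Gabarapl2. Those 5 and Atg4b were the 6 genes that had an unadjusted p under 0.05 without passing the test. The median difference, KO minus WT, was -0.05 on the log2 scale over the 38 genes and -0.01 over all genes, and without KO replicate 4 the median over the 38 was -0.01. At the stricter adjusted p of 0.01, 4 genes were higher (6.43% of all genes) and 7 lower (8.35% of all genes). Regardless of sign, the median size of the difference was 0.14 over the 38 genes and 0.11 over all genes. The shares of all genes given here and below are not matched for brightness, and the dimmest of the 38 had a mean level of 6.12. When the filter was set at the 50th percentile, fewer genes were tested, yet 3678 changed, beside 3683 in the main test. The share that changed was thus higher among brighter genes than the 24.6% of all genes. The 38 genes were not compared with genes of like brightness.

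**Figure D1:**
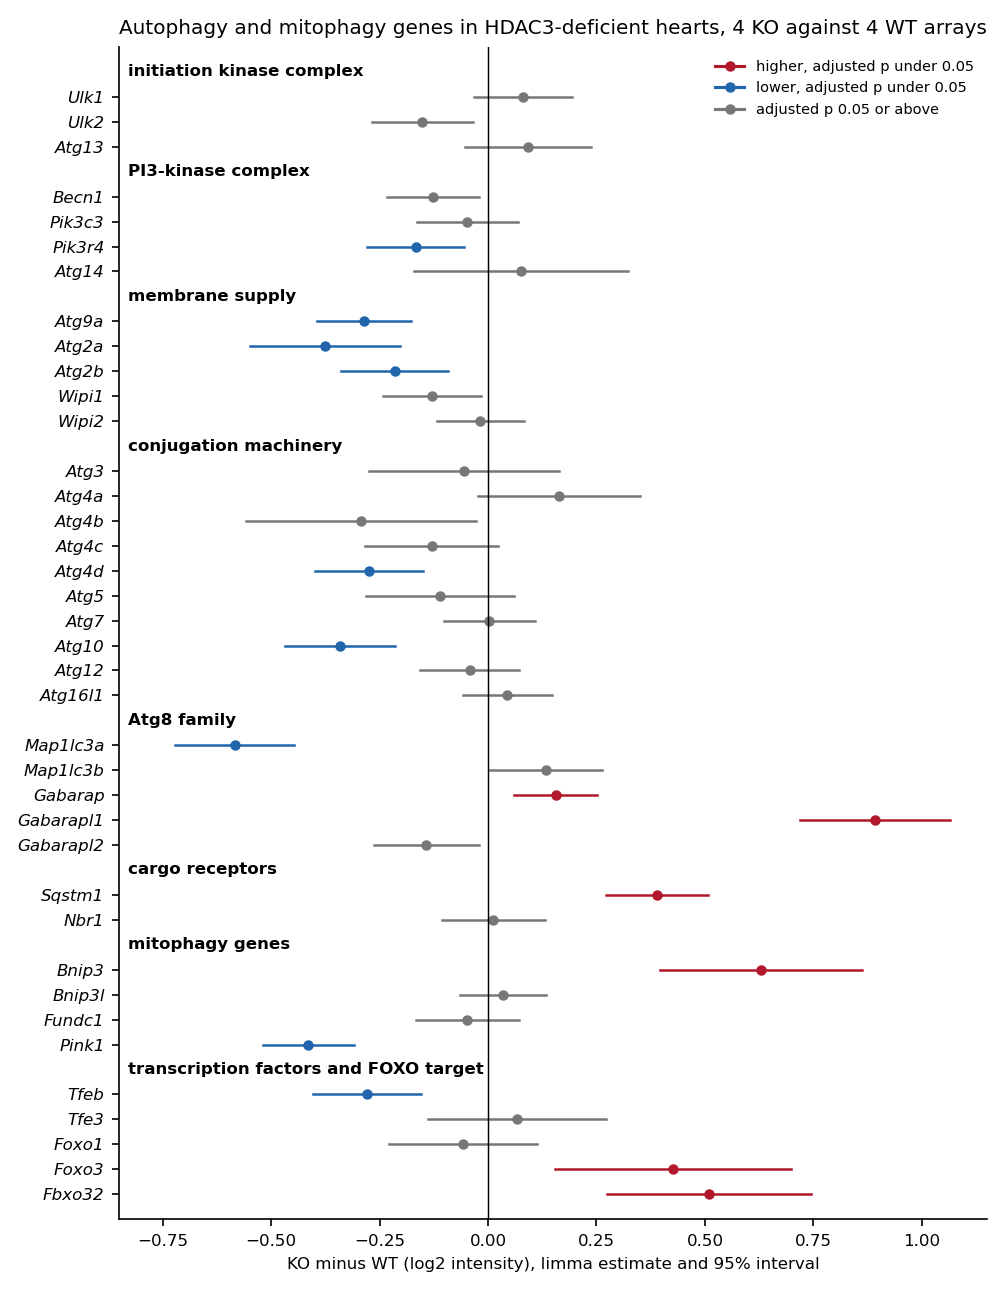
Difference between KO and WT hearts (log2 intensity, limma estimate with its 95% interval, 4 arrays per group) for the 38 measured genes, grouped by role. The 6 genes in red rose, the 9 in blue fell and the 23 in grey did not pass the test, with Gabarapl1 farthest to the right at 0.89 and Map1lc3a farthest to the left at -0.58.

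The kinase complex that starts an autophagosome had 3 genes on the list, and none of these passed the test in limma. An unadjusted p under 0.05 was found for 1 of the 3 (Ulk2). Ulk1, one of the kinases of the complex, read 8.69, 8.83, 8.83 and 8.74 in WT and 8.87, 8.87, 8.87 and 8.79 in KO, a difference of 0.08 (SE 0.05, limma adjusted p = 0.297). Atg13, its regulatory subunit, differed by 0.09 (SE 0.07, limma adjusted p = 0.357). The groups overlapped for both genes, and in both KO replicate 4 lay below the other 3 KO hearts. Ulk2, the paralogous kinase gene, was 8.52 to 8.61 in WT and 8.30 to 8.46 in KO with no overlap. Its difference of -0.15 (SE 0.05) missed the threshold at a limma adjusted p of 0.0598.

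The class III PI3-kinase complex makes the lipid that marks the site of assembly. It had 1 of 4 members lower, beside 13.9% of all genes. Pik3r4, the regulatory kinase-like subunit gene, read 7.38, 7.54, 7.42 and 7.39 in WT and 7.26, 7.29, 7.24 and 7.28 in KO. The 4 KO hearts lay below all WT hearts, and the difference was -0.17 (SE 0.05, limma adjusted p = 0.0353). This call was lost without any 1 of WT replicates 2, 3 and 4 or KO replicates 1, 2 and 3, with limma adjusted p between 0.0514 and 0.0906, and without the filter on dim genes (limma adjusted p = 0.0543). Becn1, the scaffold subunit gene, was 7.64 to 7.67 in WT and 7.46 to 7.60 in KO without overlap, but its difference of -0.13 (SE 0.05) gave a limma adjusted p of 0.0794 (0.0384 without KO replicate 4). Pik3c3, the catalytic subunit gene, differed by -0.05 (SE 0.05). Atg14, whose product directs the complex to autophagy, differed by 0.08 (SE 0.11), and by -0.02 without KO replicate 3. The KO values of Atg14 ran from 6.50 to 7.12 and enclosed all 4 WT values.

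Of the 5 genes for membrane supply, 3 fell, beside 13.9% of all genes, and 1 of these 3 calls (Atg2b) was lost without KO replicate 1. Atg9a encodes the membrane protein of the vesicles that seed the autophagosome. It read 8.33, 8.38, 8.32 and 8.36 in WT hearts and 8.13, 8.07, 7.98 and 8.07 in KO hearts. Every KO heart was below every WT heart, and Atg9a fell by 0.29 (limma adjusted p = 0.00184, SE 0.05, 95% interval -0.39 to -0.18).

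Atg2a and Atg2b encode paralogous proteins that move lipid into the growing membrane. WT hearts gave 7.43, 7.64, 7.38 and 7.44 for Atg2a, and KO hearts 7.20, 7.20, 7.05 and 6.94. For Atg2b the WT values were 7.92, 7.98, 7.82 and 7.91 and the KO values 7.68, 7.75, 7.74 and 7.59. Neither gene's groups overlapped. Atg2a fell by 0.38 (SE 0.08, limma adjusted p = 0.00532) and Atg2b by 0.22 (SE 0.06, limma adjusted p = 0.0175). Without KO replicate 1 the limma adjusted p of Atg2b was 0.0511. The products of Wipi1 and Wipi2 bind the lipid made by the PI3-kinase complex. Wipi1 differed by -0.13 (SE 0.05, limma adjusted p = 0.0952) with no overlap of the groups, and Wipi2 by -0.02 (SE 0.05), or 0.01 after quantile normalisation.

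The conjugation machinery attaches Atg8 proteins to lipid, and 2 of its 10 members fell, beside 13.9% of all genes. None rose, beside 10.8% of all genes. Of the members that did not pass the test, 1 (Atg4b) had an unadjusted p under 0.05 in limma. Atg10, the conjugating enzyme gene for Atg12, was 9.35, 9.32, 9.35 and 9.37 in WT and 8.96, 9.07, 9.10 and 8.89 in KO. The WT hearts lay within a narrow range and all KO hearts below it, with a difference of -0.34 (SE 0.06, 95% interval -0.47 to -0.22, limma adjusted p = 0.0016). Atg4d is one of 4 genes for the proteases that trim Atg8 proteins and release them from lipid. It read 7.56, 7.63, 7.50 and 7.54 in WT and 7.35, 7.20, 7.24 and 7.36 in KO. It fell by 0.27 (SE 0.06, limma adjusted p = 0.00481) with no overlap.

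The other 3 protease genes did not pass the test. Atg4b had the largest difference among the genes that missed it, -0.29 (SE 0.12, limma adjusted p = 0.105), and its KO values of 6.02 to 6.60 overlapped the WT values of 6.46 to 6.79. Single arrays moved it: the difference was -0.18 without KO replicate 4, and -0.38 with a limma adjusted p of 0.0427 without KO replicate 2. Atg4c differed by -0.13 (SE 0.07, limma adjusted p = 0.212). For Atg4a the difference was 0.16 (SE 0.08, limma adjusted p = 0.196), and WT replicate 2 at 9.35 stood with the KO hearts, away from the other WT hearts at 9.01 to 9.06. Without that array the difference was 0.24 (limma adjusted p = 0.0261).

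The remaining 5 conjugation genes encode the activating enzyme Atg7, the conjugating enzyme Atg3 and the parts of the complex that places Atg8 proteins on the membrane (Atg5, Atg12, Atg16l1). Differences were 0.00 (SE 0.05) for Atg7, -0.05 (SE 0.10) for Atg3, -0.11 (SE 0.08) for Atg5, -0.04 (SE 0.05) for Atg12 and 0.04 (SE 0.05) for Atg16l1. The groups overlapped in these 5 genes. The sign was not fixed for Atg7, which stood at -0.02 after scaling each array to its median, nor for Atg3, which stood at 0.05 without KO replicate 4. Their 95% intervals, -0.10 to 0.11 for Atg7 and -0.27 to 0.16 for Atg3, give the sizes of difference that these arrays could not resolve.

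The Atg8 family split, with 2 of 5 genes higher (10.8% of all genes) and 1 lower (13.9% of all genes). Gabarapl1 (transcript cluster 10542200), whose product belongs to the GABARAP branch of the family, read 9.50, 9.49, 9.76 and 9.76 in WT and 10.55, 10.52, 10.58 and 10.40 in KO. Each KO heart lay well above the highest WT heart. Gabarapl1 rose by 0.89 (SE 0.08, 95% interval 0.72 to 1.07), which is 1.86-fold, with a limma adjusted p of 2.68e-05.

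Map1lc3a (transcript cluster 10477637) encodes an LC3 protein, of the other branch of the family, and moved the opposite way. It read 9.88, 10.02, 9.85 and 9.90 in WT hearts and 9.31, 9.27, 9.28 and 9.47 in KO hearts, so that the highest KO heart was still below the lowest WT heart. The fall was 0.58 (SE 0.06, limma adjusted p = 9.29e-05, 95% interval -0.72 to -0.45), which left the KO mean at 66.7% of WT.

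Gabarap read 12.13, 12.14, 12.18 and 12.18 in WT and 12.31, 12.30, 12.34 and 12.30 in KO, and rose by 0.16 (SE 0.04, limma adjusted p = 0.0229). Its groups did not overlap, but the call did not hold under other scaling: the limma adjusted p was 0.066 after scaling each array to its median and 0.0501 after quantile normalisation. It was lost as well without WT replicate 1 or any 1 of KO replicates 1, 2 and 3 (limma adjusted p 0.0528 to 0.0614). Map1lc3b, the LC3 gene whose product is most used to follow autophagosomes, read 10.74, 10.76, 10.62 and 10.75 in WT and 10.79, 10.82, 10.83 and 10.97 in KO. Gabarapl2 read 10.50, 10.63, 10.59 and 10.54 in WT and 10.45, 10.41, 10.50 and 10.33 in KO. The groups of both genes stood apart by a narrow gap, Map1lc3b with KO above WT and Gabarapl2 with KO below. Neither passed the test, with differences of 0.13 (SE 0.06, limma adjusted p = 0.126) for Map1lc3b and -0.14 (SE 0.05, limma adjusted p = 0.0844) for Gabarapl2.

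**Figure D2:**
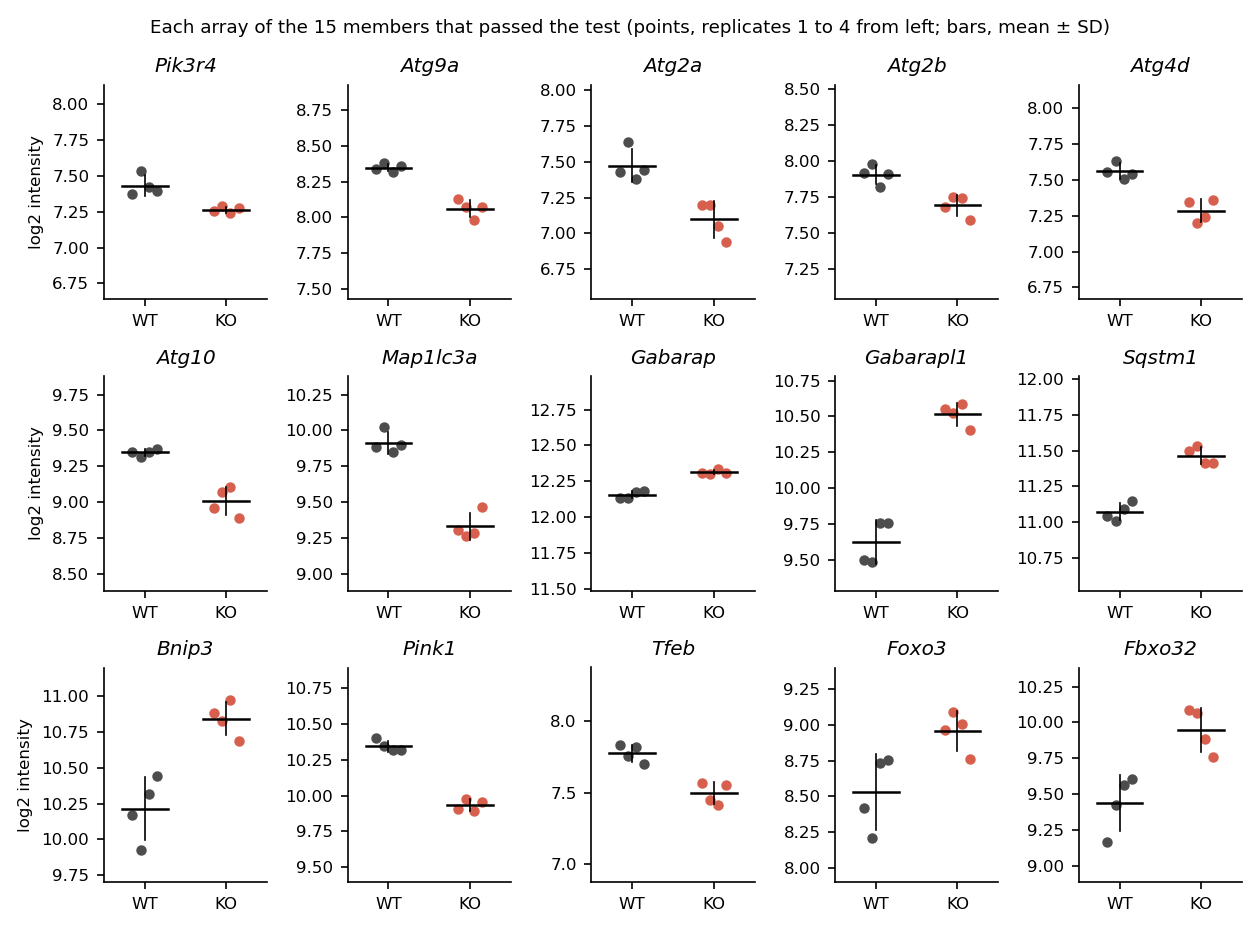
Log2 intensity on each array for the 15 genes that changed, with replicates 1 to 4 of each group from left to right and the group mean with its SD (n = 4). No KO value overlaps the WT values in any of the 15 genes, and in Foxo3 WT replicate 4 and KO replicate 4 nearly touch at 8.76.

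Cargo receptors link ubiquitinated cargo to Atg8 proteins, and 1 of the 2 measured here rose, beside 10.8% of all genes. Sqstm1, which encodes p62 and is both a receptor and itself degraded by autophagy, read 11.04, 11.01, 11.09 and 11.15 in WT and 11.50, 11.53, 11.41 and 11.41 in KO. All KO hearts were above all WT hearts. It rose by 0.39 (SE 0.05, 95% interval 0.27 to 0.51), 1.31-fold, with a limma adjusted p of 0.000439. Nbr1, a receptor gene of similar design, differed by 0.01 (SE 0.05, limma adjusted p = 0.9), with overlapping groups and a sign that turned to -0.01 when arrays were scaled to their medians.

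Among the mitophagy genes one receptor gene rose and the kinase gene fell. Bnip3 encodes a receptor on the outer mitochondrial membrane that binds Atg8 proteins. Its transcript cluster (10414269) read 10.17, 9.93, 10.31 and 10.44 in WT and 10.88, 10.83, 10.97 and 10.69 in KO. KO hearts lay above WT hearts throughout, while WT hearts spread more widely (SD 0.22) than KO hearts (SD 0.12). Bnip3 rose by 0.63 (SE 0.10, 95% interval 0.40 to 0.86), 1.55-fold, with a limma adjusted p of 0.00158.

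Bnip3l, also called Nix, is the paralogous receptor gene. It read 10.93, 10.91, 10.98 and 10.95 in WT and 10.97, 10.94, 11.02 and 10.97 in KO, with overlapping groups. Its difference of 0.03 (SE 0.04, limma adjusted p = 0.647) had a 95% interval of -0.07 to 0.13 and was 0.00 after quantile normalisation. Fundc1, another receptor gene of the outer membrane, differed by -0.05 (SE 0.05, limma adjusted p = 0.588).

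Pink1 encodes the kinase that accumulates on damaged mitochondria and marks them for mitophagy. WT hearts gave 10.40, 10.35, 10.31 and 10.32, and KO hearts 9.90, 9.98, 9.89 and 9.95. The gap between the groups was several times the spread within either. Pink1 fell by 0.41 (SE 0.05, 95% interval -0.52 to -0.31) and stood at 75.1% of WT, with a limma adjusted p of 0.000147.

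Transcription factors of autophagy genes divided as well. Tfeb, the master regulator gene of lysosomal and autophagy genes, read 7.83, 7.75, 7.82 and 7.70 in WT and 7.57, 7.45, 7.41 and 7.56 in KO. Each KO heart lay below each WT heart, and Tfeb fell by 0.28 (SE 0.06, limma adjusted p = 0.00453). Tfe3, its relative, differed by 0.07 (SE 0.09, limma adjusted p = 0.666), with overlapping groups.

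Foxo3, a forkhead factor gene, read 8.42, 8.21, 8.74 and 8.76 in WT and 8.96, 9.09, 9.00 and 8.76 in KO. The 2 groups almost met, with WT replicate 4 and KO replicate 4 equal at this precision. Foxo3 rose by 0.43 (SE 0.12, limma adjusted p = 0.0283), and the call was lost without any 1 of WT replicates 1 and 2 or KO replicates 1, 2 and 3 (limma adjusted p 0.0503 to 0.0794). Foxo1, the related factor gene, was 8.27 to 8.57 in WT and 8.17 to 8.38 in KO, a difference of -0.06 (SE 0.08, limma adjusted p = 0.652) that was 0.01 without WT replicate 2.

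Fbxo32 encodes atrogin-1, a muscle ubiquitin ligase subunit known as a FOXO target. It read 9.16, 9.42, 9.56 and 9.60 in WT and 10.08, 10.07, 9.88 and 9.76 in KO. Both groups were spread out, yet the lowest KO heart was above the highest WT heart. Fbxo32 rose by 0.51 (SE 0.11, 95% interval 0.28 to 0.74), 1.42-fold, with a limma adjusted p of 0.00553.

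Of the 6 measured genes with 2 transcript clusters each, 3 were represented by a cluster that looked out of place, which bears on Bnip3, Atg4a and Gabarapl2. Clusters on this array are mostly numbered along the chromosomes: 6 or more of the 10 nearest-numbered clusters belonged to genes of the same chromosome for 99.6% of 18904 clusters of genes with a single cluster, and for 32 of 32 such clusters among the genes described here. The share was 78.4% for 2640 clusters of genes with several. The brightest cluster, which the rule uses, had 0 of 10 neighbours from the gene's own chromosome for Bnip3, Atg4a and Gabarapl2, and the dimmer cluster had 10 of 10. Whether the brighter clusters read another copy of the sequence was not tested.

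For Bnip3 the dimmer cluster gave nearly the same difference. It read 9.88, 9.48, 9.98 and 10.09 in WT and 10.50, 10.34, 10.55 and 10.40 in KO, again without overlap, and differed by 0.59 where the brighter one differed by 0.63. With the own-chromosome cluster Atg4a differed by 0.19 and passed the test (limma adjusted p = 0.0338). For Gabarapl2 the own-chromosome cluster was far dimmer, 4.66 to 5.58 in WT and 4.52 to 4.86 in KO, with overlapping groups and a difference of -0.31 (SE 0.17). Bnip3l and Map1lc3b were represented by their own-chromosome cluster, and their second clusters differed by 0.13 each (SE 0.06 and 0.17). Both clusters of Atg2b had own-chromosome neighbours. The dimmer one differed by -0.14 (SE 0.06, limma adjusted p = 0.134 in a fit over 19630 clusters), so the fall of Atg2b passed the test in 1 of its 2 clusters.

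**Figure D3:**
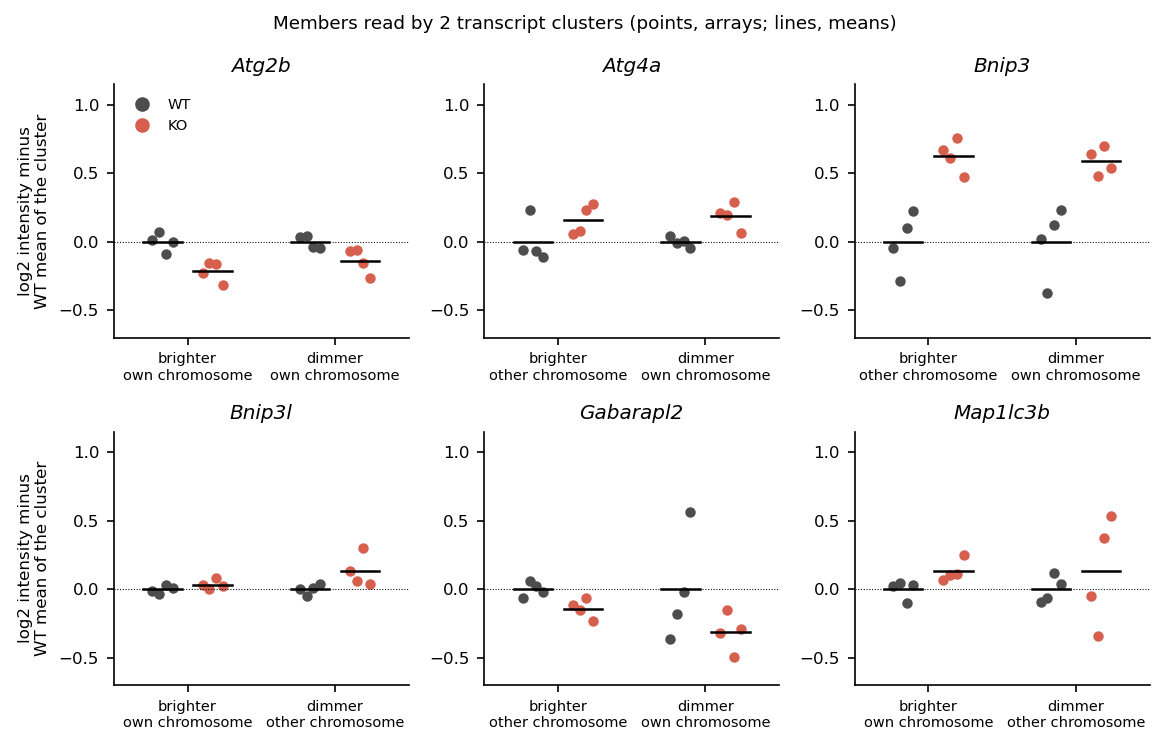
Log2 intensity of each array minus the WT mean of the same transcript cluster, for the 6 genes read by 2 clusters, with each cluster named as brighter or dimmer and by whether its neighbours in number lie on the gene's own chromosome. The 2 clusters of Bnip3 show the same KO rise, 0.63 and 0.59, and the dimmer cluster of Gabarapl2 scatters most in WT.

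Promoter sequence was examined for letters that known regulators of these genes bind, because Tfeb, Foxo3, Gabarapl1 and Bnip3 were among the genes that changed. RefSeq windows of build GRCm38 cover 250 bases before to 50 bases after a transcript start, and 31 of the 38 measured genes have at least 1 window (37 windows in all). Atg16l1, Fbxo32, Pik3c3, Map1lc3a, Atg12, Becn1 and Bnip3l have no entry. Both strands were searched. CACGTG, the E-box core that reads the same on both strands and that TFEB-type factors can bind, occurred in windows of 5 of the 31 genes (16.1%), beside 8.09% of 27025 genes with a window. Counted by window, the shares were 13.5% of the 37 and 7.15% of 32851. These were Bnip3, Atg3, Atg5, Atg7 and Atg14, of which only Bnip3 changed. GTAAACA, a forkhead consensus, occurred in 0 of the 31 genes and in 4.05% of all genes with a window. ATAAACA, a forkhead variant that shares its last 6 letters and was added after the windows had been seen, occurred in Gabarapl1, Wipi2 and Atg4a (9.68%) and in 5.28% of all genes. TGACNNNGC, the core of the antioxidant response element, also added afterwards, occurred in Atg13, Map1lc3b and Ulk2 (9.68%), none of which changed, and in 14.0% of all genes. A match is a description of letters, and binding was not measured.

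The sequences upstream of the 2 genes that changed by 1.5-fold or more are shown first, as the 250 bases before the start, read 5′ to 3′ on the gene's strand with the matched letters in capitals. Bnip3 lies on the minus strand of chromosome 7, at chr7:138909507-138909756, with its E-box 108 bases before the start. Gabarapl1 lies on the plus strand of chromosome 6, at chr6:129532942-129533191, with ATAAACA 95 bases before the start.
Bnip3: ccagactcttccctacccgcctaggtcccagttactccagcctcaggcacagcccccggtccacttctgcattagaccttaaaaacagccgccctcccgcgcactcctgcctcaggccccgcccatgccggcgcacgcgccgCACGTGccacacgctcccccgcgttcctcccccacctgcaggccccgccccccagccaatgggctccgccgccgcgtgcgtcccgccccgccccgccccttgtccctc
Gabarapl1: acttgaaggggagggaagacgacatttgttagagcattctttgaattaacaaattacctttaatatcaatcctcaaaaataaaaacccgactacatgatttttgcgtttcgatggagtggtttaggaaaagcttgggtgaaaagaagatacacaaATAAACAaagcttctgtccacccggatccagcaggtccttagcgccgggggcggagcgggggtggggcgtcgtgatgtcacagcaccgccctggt
Atg3 is shown beside them because it carries 2 E-boxes, 94 and 71 bases before its start, at chr16:45158579-45158828 on the plus strand, while its level did not pass the test.
Atg3: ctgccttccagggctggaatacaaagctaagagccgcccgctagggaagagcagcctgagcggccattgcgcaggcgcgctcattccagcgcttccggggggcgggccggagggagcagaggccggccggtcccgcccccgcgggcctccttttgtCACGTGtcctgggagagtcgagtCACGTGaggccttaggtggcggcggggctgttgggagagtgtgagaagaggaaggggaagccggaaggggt
The E-boxes of the other 3 genes are shown in 30-base stretches: Atg7 at chr6:114670952-114670981 and Atg5 at chr10:44268309-44268338 on the plus strand, and Atg14 at chr14:47568430-47568459 on the minus strand. The Atg7 window belongs to a RefSeq start inside the gene.
Atg7: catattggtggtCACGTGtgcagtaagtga
Atg5: agggcggagcgcttgcCACGTGgtcttggt
Atg14: tgcacctggataaaaacaaaatccCACGTG
The same 6 letters thus stand in the window of a gene that rose by 0.63 (Bnip3) and of genes that differed by -0.05 (Atg3), 0.00 (Atg7), -0.11 (Atg5) and 0.08 (Atg14), with none of the latter 4 passing the test.

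Further genes of the pathway were taken from 8 lists that hold none of the 40 genes. Of 124 tested genes in these lists, 22 rose (17.7%; 10.8% of all genes tested) and 23 fell (18.5%; 13.9% of all genes tested), with a median difference of -0.02. Most of these lists are short, and their shares were not tested against those of all genes. The call held when each array was left out in turn for 33 of these 45 genes, and only such genes are named below, up to 4 per list and direction by adjusted p. Counts for the 2 directions without single arrays were 15 to 24 higher and 18 to 22 lower.

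**Figure D4:**
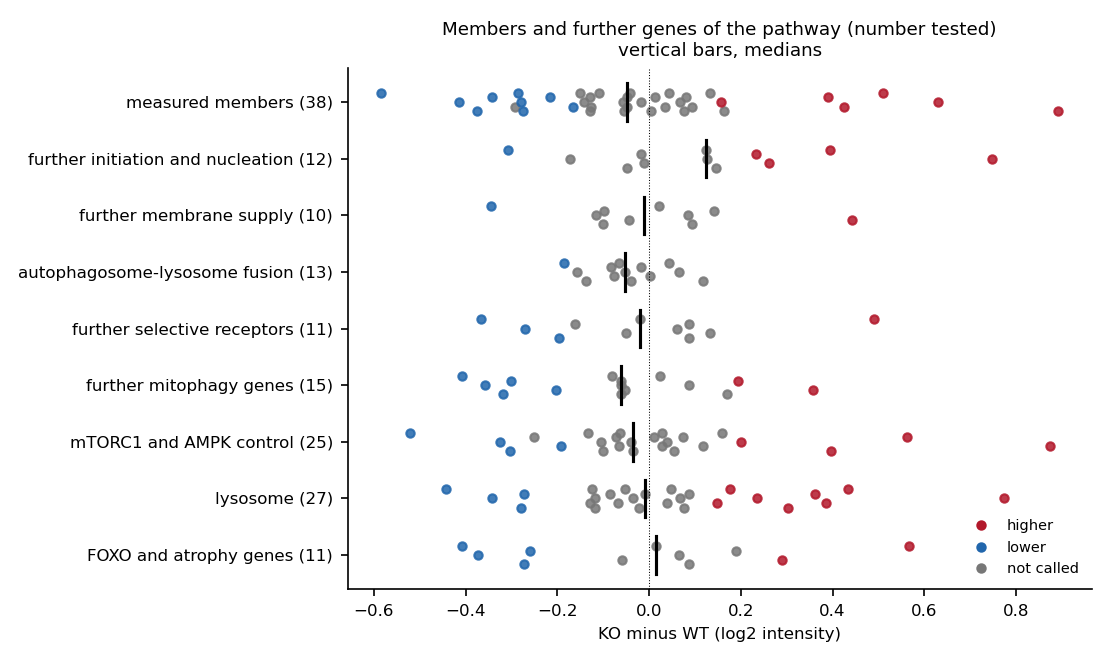
Difference between KO and WT (log2 intensity) for each of the 38 measured genes and for the tested genes of 8 further pathway lists, with a vertical bar at the median of each. Points to the right in red rose, those to the left in blue fell and grey points did not pass the test. Medians lie between -0.06 (further mitophagy genes) and 0.12 (further initiation and nucleation).

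Further initiation and nucleation genes had 4 of 12 higher (33.3%; 10.8% of all genes) and 1 lower (8.33%; 13.9% of all genes), with 7 differences above 0 and 5 below. Without KO replicate 1 or KO replicate 2 only 2 of the 12 were higher. Trp53inp1, a stress-induced gene whose product binds Atg8 proteins, rose by 0.75 (SE 0.13, limma adjusted p = 0.00199). Rb1cc1, which encodes the scaffold of the Ulk complex, rose by 0.26 (SE 0.06, limma adjusted p = 0.00627). Trp53inp2, a paralogue of Trp53inp1, fell by 0.31 (SE 0.07, limma adjusted p = 0.00828). Of 10 further membrane supply genes 1 rose, the Wipi-related Wdr45 (0.44, SE 0.06), and 1 fell, the endoplasmic reticulum gene Ei24 (-0.34, SE 0.07). The count of higher genes in that list was 2 without WT replicate 2 and 3 without KO replicate 4. For fusion with the lysosome 1 of 13 fell (7.69%; 13.9% of all genes), the SNARE gene Stx17 (-0.19, SE 0.05, limma adjusted p = 0.0145). None of the 13 rose in limma, nor at an unadjusted p under 0.05.

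Further selective receptors had 1 of 11 tested genes higher (9.09%; 10.8% of all genes) and 3 lower (27.3%; 13.9% of all genes). The count of lower genes was 2 without any 1 of WT replicates 1 and 2 or KO replicates 1, 2 and 3. It was 1 at a limma adjusted p under 0.01. Retreg1, a receptor gene for the endoplasmic reticulum, rose by 0.49 (SE 0.08). Calcoco1 fell by 0.37 (SE 0.06), and the glycogen receptor gene Stbd1 fell by 0.27 (SE 0.07). Of 15 further mitophagy and mitochondrial dynamics genes 2 rose (13.3%, near the 10.8% of all genes) and 5 fell (33.3%; 13.9% of all genes). The fission genes Fis1 and Dnm1l fell by 0.41 (SE 0.05) and 0.30 (SE 0.05), as did the fusion gene Mfn1 by 0.36 (SE 0.04) and the mitochondrial transport gene Rhot1 by 0.32 (SE 0.06). Marchf5, a mitochondrial ubiquitin ligase gene, rose by 0.36 (SE 0.05). The count of higher genes in this list was 1, not 2, without any 1 of WT replicates 1 and 2 or KO replicates 1, 2 and 3.

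Regulators upstream of autophagy, the mTORC1 and AMPK kinases with their partners, had 4 of 25 genes higher (16.0%) and 4 lower (16.0%), near the shares of all genes (10.8% and 13.9%). Ddit4, an inhibitor gene of mTORC1, read 8.34, 7.82, 8.70 and 8.37 in WT and 9.35, 9.42, 9.18 and 8.79 in KO, and rose by 0.87 (SE 0.18, limma adjusted p = 0.0057). WT replicate 2 was the lowest and KO replicate 4 the lowest of its group, and the groups did not overlap. Fnip1, a folliculin partner gene, rose by 0.56 (SE 0.07, limma adjusted p = 0.000252). Tsc2, an inhibitor gene of mTORC1 signalling, fell by 0.30 (SE 0.05, limma adjusted p = 0.000902), and Prkab1, an AMPK subunit gene, by 0.52 (SE 0.08, limma adjusted p = 0.0011). Without any 1 of WT replicates 1 and 2 or KO replicates 1 and 2, 2 genes of this list were higher, and without WT replicate 2 or KO replicate 1, 2 were lower.

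Lysosomal genes had 8 of 27 higher (29.6%; 10.8% of all genes) and 4 lower (14.8%, near the 13.9% of all genes). The cathepsin gene Ctsz rose by 0.77 (SE 0.08), the lipase gene Lipa by 0.43 (SE 0.05), the hexosaminidase gene Hexa by 0.39 (SE 0.05) and the cholesterol transfer gene Npc2 by 0.36 (SE 0.05). The acid glucosidase gene Gaa fell by 0.44 (SE 0.05), the cholesterol transporter gene Npc1 by 0.34 (SE 0.05) and the proton pump subunit gene Atp6v1d by 0.28 (SE 0.06). Macrophages are rich in lysosomes, and their markers rose in the same hearts, among them Lyz2 by 1.41 (SE 0.07), C1qc by 1.32 (SE 0.10) and C1qb by 1.28 (SE 0.13). Their part in the lysosomal differences, and in those of the 38 genes, was not tested.

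In the list of FOXO factors and muscle atrophy genes 2 of 11 rose (18.2%; 10.8% of all genes) and 4 fell (36.4%; 13.9% of all genes), beside the rises of Foxo3 and Fbxo32. The coactivator gene Cited2 rose by 0.57 (SE 0.09) and the ubiquitin ligase gene Fbxo30 by 0.29 (SE 0.06). Fbxo21 fell by 0.41 (SE 0.05), the muscle caveolar gene Cavin4 by 0.37 (SE 0.05) and the forkhead gene Foxo4 by 0.26 (SE 0.06).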

How the data were processed

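Total RNA of 8 hearts was hybridised to 8 arrays, 1 per mouse. Partek and RMA (robust multi-array averaging) were named in the submitters' processing notes, with no version or role. The authors' deposited values are processed intensities, and their range on each array is that of a linear, not a log, scale. No source used here gives the probe annotation or genome build. Scanner files were not analysed here, so scan batches could not be examined.

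Clusters were named through the platform annotation: 21631 carried 1 symbol, 1317 several and 4593 none. The brightest single-symbol cluster stood for each of 19933 genes. The dimmest genes, below the 25th percentile of the mean over all arrays (log2 4.50), were not tested. Values were taken to log2, and KO was compared with WT in limma 3.58.1 (R 4.3.3, lmFit and eBayes, two-sided, no covariate), with Benjamini-Hochberg adjustment over 14950 genes and a threshold of 0.05. On simulated data of 14950 genes the test recovered 99 of 100 changes of 1.5-fold and 100 of 100 of 2-fold, with 8 false calls among 207. The simulated noise was normal and independent between genes. Changes were given to 100 genes per fold size, whereas 3683 genes changed in the hearts. The share of false calls in the hearts can therefore differ from the simulated one. No change under 1.5-fold was simulated, so recovery of smaller differences, which most of the genes that changed here had, was not examined. Figures were drawn in matplotlib 3.10.9 (Python 3.11.15).

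The 40 genes, the pathway lists and the markers were chosen with earlier results of these data known. The measured genes are all named (1 gene of the list is not reported here), with values on every array for those that changed and for the Atg8 family, Bnip3, Bnip3l, Pink1, Sqstm1 and Fbxo32. Pathway genes are named up to 4 per list and direction by adjusted p where the call held without each array, and markers for some of the lists that moved. The condition on pathway genes was added, and the markers named were chosen, after the values were seen. Older symbols Fam134b, March5 and Murc were read as Retreg1, Marchf5 and Cavin4. Promoter windows come from RefSeq (GRCm38). Alternatives covered scaling, the filter, the variance model, array weights, cluster choice, threshold, linear scale, replicate block and leaving out each array.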

Additional observations from a re-analysis of the deposited data

Results flagged for a closer look

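In each group of 4 arrays the farthest array was compared with the other 3, and it was singled out where its gap to the nearest exceeded 0.829 of the whole range. Of 144 groups examined over 72 genes 13 met this, and of the 76 groups of the 38 measured genes 8 did. Chance singles out about 1 group in 20.

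KO replicate 4 lay below the other KO hearts in Ulk1 (8.79 against 8.87 in each of the other 3) and in Atg13 (9.60 against 9.79 to 9.82). It was also lowest in Hdac3 (8.50 against 8.59), in the receptor gene Retreg1 (9.80 against 10.05 to 10.09) and in the macrophage marker C1qc (10.06 against 10.36 to 10.40), and highest in the glycogen receptor gene Stbd1 (5.24 against at most 5.03). WT replicate 2 lay above the other WT hearts in Atg4a (9.35 against 9.01 to 9.06), Foxo1 (8.57 against 8.27 to 8.30) and C1qc (9.25 against 8.89 to 8.90).

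The other 4 arrays singled out were KO replicate 1 in Wipi1 (8.74 against 8.85 to 8.87), WT replicate 4 in Atg3 (8.34 against 8.21 to 8.23), WT replicate 3 in Map1lc3b (10.62 against 10.74 to 10.76) and KO replicate 3 in Gabarap (12.34 against 12.30 to 12.31). Over all genes, the SD of deviations from the group mean was 0.124 for KO replicate 4 and 0.14 for WT replicate 2, against 0.074 to 0.111 for the other 6 arrays.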

How the results depend on the processing

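Of the 15 genes that changed, 11 passed the test under all 16 alternatives that give a test, 4 (Pik3r4, Atg2b, Gabarap and Foxo3) lost the call in some, and 0 reversed. Of the other 23, 6 passed in some (Ulk2, Becn1, Wipi1, Atg4a, Atg4b and Gabarapl2). Differences that reversed, all of genes that did not pass the test, were Wipi2 at 0.0114 with quantile normalisation and 0.0071 with array weights, Atg7 at -0.0194 and Nbr1 at -0.01 with median scaling, and Bnip3l at -0.0018 with quantile normalisation. Leaving out each array gave ranges of -0.0157 to 0.192 for Atg14, -0.133 to 0.0463 for Atg3, -0.012 to 0.0227 for Atg7, -0.013 to 0.0507 for Nbr1 and -0.0849 to 0.0124 for Foxo1. The cause of these reversals was not tested. Across leave-one-out fits 4 to 6 of the 38 genes were higher, 7 to 10 were lower, and the median difference ran from -0.06 to -0.01. At an adjusted p under 0.01, 4 genes were higher and 7 lower, beside 961 and 1249 of all genes (2210 in all, 14.8%). With the replicate number as a block 4 were higher and 9 lower: Foxo3, Gabarap and Pik3r4 were lost (limma adjusted p 0.0579, 0.0586 and 0.0595) and Atg4b gained, and 3382 of all genes changed. The labels do not say whether the numbers pair the hearts. Deviations of same-numbered hearts correlated at -0.057, 0.127, 0.05 and 0.111, and those of the other pairs at -0.183 to 0.203. So few weak correlations cannot decide whether the hearts were paired. With 4 hearts per group, standard errors of the 38 genes ran from 0.04 to 0.12, and the smallest difference that passed was 0.16.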
